A study of Mus musculus with 20 samples.

Results

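The genes examined here are 5 genes of beta cell glucose sensing, Slc2a2, G6pc2, Slc30a8, Mlxipl and Hnf4a, out of 26211 genes in the table of normalized read counts. They were chosen by name for their roles in glucose uptake, glucose phosphorylation, zinc transport and the nuclear control of these steps, and each was found once under its Ensembl identifier. RNA-seq was made from mouse pancreatic islets, with 10 libraries from P2Y14-knockout mice and 10 from wild-type mice, all of the strain C57BL/6 x 129S6. P2Y14, the product of P2ry14, is a membrane receptor that responds to UDP-glucose and related UDP-sugars, and no other treatment is named. The islets were freed with a collagenase blend, picked by hand and cultured overnight before lysis. How the knockout allele was made, the age and sex of the mice and the glucose level of the culture are not stated in the labels. Nothing in them ties 1 library to 1 mouse, so p-values measure only the spread between these samples, which may be technical.

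Beta cells sense glucose by its metabolism. Glucose enters through GLUT2, the transporter encoded by Slc2a2, and is phosphorylated, and its breakdown raises ATP, closes ATP-sensitive potassium channels and triggers insulin release. G6pc2 encodes the islet glucose-6-phosphatase, which takes the phosphate off again. Mlxipl encodes ChREBP, a transcription factor that is activated by glucose metabolites and acts with MLX, and Hnf4a encodes a nuclear receptor whose mutations cause a monogenic form of diabetes. Slc30a8 encodes ZnT8, which carries zinc into insulin granules, where insulin is stored in zinc-bound form.

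A normalized read count here is the number of reads of a gene divided by a size factor of its library, and a gene-level count sums the transcripts of all its start sites. G6pc2, Hnf4a and Mlxipl each have a pair of start sites in the RefSeq table used, so their values cannot be assigned to a start. The 250 bases before these starts and before the start of Slc2a2, the gene with the largest difference below, are shown to make the merged starts visible. They are on the plus strand, 5′ to 3′, from RefSeq on GRCm38.p6, and capitals mark matches to the motifs searched.
Slc2a2, chr3:28697653-28697902: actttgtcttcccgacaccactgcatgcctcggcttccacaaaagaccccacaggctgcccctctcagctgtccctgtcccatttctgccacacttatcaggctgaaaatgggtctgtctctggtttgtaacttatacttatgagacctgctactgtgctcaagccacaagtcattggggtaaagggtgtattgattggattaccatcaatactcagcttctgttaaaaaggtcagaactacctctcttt
G6pc2, upstream start, chr2:69210823-69211072: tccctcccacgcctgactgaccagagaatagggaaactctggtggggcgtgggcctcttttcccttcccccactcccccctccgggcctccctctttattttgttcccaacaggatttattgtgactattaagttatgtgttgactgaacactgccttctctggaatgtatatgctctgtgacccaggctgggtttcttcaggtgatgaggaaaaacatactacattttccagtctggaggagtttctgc
G6pc2, downstream start, chr2:69219699-69219948: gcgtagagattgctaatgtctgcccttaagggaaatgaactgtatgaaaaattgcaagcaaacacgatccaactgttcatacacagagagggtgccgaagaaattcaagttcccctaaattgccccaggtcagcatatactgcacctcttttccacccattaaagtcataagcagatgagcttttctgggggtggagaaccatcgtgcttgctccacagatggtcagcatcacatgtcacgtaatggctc
Hnf4a, upstream start, chr2:163506607-163506856: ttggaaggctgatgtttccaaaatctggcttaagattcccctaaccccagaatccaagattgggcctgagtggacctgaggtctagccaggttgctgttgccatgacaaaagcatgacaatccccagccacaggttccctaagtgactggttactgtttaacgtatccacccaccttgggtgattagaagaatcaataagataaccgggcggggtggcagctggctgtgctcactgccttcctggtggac
Hnf4a, downstream start, chr2:163546905-163547154: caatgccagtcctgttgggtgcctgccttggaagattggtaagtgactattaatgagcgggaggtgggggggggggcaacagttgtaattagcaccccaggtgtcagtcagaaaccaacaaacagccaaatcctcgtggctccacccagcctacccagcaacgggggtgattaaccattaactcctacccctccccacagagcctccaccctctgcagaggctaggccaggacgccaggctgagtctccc
Mlxipl, upstream start, chr5:135089640-135089889: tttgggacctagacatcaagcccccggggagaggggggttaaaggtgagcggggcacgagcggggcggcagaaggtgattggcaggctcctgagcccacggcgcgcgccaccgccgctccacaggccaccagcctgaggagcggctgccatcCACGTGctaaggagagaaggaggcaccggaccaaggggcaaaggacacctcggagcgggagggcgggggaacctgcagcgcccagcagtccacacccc
Mlxipl, downstream start, chr5:135106641-135106890: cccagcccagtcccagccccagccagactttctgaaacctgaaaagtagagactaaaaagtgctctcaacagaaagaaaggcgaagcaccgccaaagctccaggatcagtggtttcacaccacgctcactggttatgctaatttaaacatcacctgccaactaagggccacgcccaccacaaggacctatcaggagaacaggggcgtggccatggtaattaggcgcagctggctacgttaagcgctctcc

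Of the 5 genes, 4 had entries in this promoter table, in 7 windows. Both strands were searched for CACGTG, the E-box core of ChREBP and MLX, TGTTTAC, a FOXA motif, and CAAAGTC, an HNF4 core, none of which overlapped another in these windows. The window before the upstream Mlxipl start held 1 match to CACGTG, which 6.02% of all 32851 windows of this length hold at least once. TGTTTAC (3.17% of all windows) and CAAAGTC (3.84%) were in none of the 7.

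The libraries held 34520628 to 199847246 reads over genes, and the 5 genes had from 874 reads (Hnf4a) to 139654 reads (G6pc2) in a library. P2ry14 had a mean of 151 ± 67.4 (SD, n = 10) in wild-type islets against 51.2 ± 31.4 (SD, n = 10) in knockout islets (two-sided permutation test, p = 0.00018), and the ranges of the groups overlapped. In the fit over all genes that is used for the 5 genes, P2ry14 itself had a log2 fold change of −1.97 and did not pass (adjusted p = 0.244 by limma). Islet markers were present in every library, with Ins1 at 660362 or more, Gcg at 513752 or more and Sst at 34450 or more. Pancreatic acinar markers were present too and took 8.76% to 34.4% of reads in knockout and 6.66% to 33.5% in wild-type libraries. In bulk islets, fewer beta cells and less RNA per beta cell cannot be told apart.

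When knockout islets were set against wild-type ones, no gene of the 5 passed an adjusted p under 0.05 by limma, edgeR or DESeq2, and 1, Slc2a2, had an unadjusted p under 0.05 by limma. Over all 17482 genes tested by limma, 49 passed, which is 0.28%, and 8.94% had an unadjusted p under 0.05. The log2 fold change of knockout over wild-type was below 0 for 4 of the 5, Mlxipl being the exception, and for 50.4% of all genes. The 2 groups overlapped for all 5, whereas they did not overlap for 0.0343% of all genes.

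Slc2a2 (ENSMUSG00000027690, chromosome 3), the transporter gene, had a lowest, median and highest normalized read count of 5840, 9500 and 14739 in knockout and of 6008, 13146 and 20324 in wild-type libraries. Knockout replicate 10 and wild-type library 20 were the lowest of their groups, and 9 of 10 knockout libraries lay below the wild-type median while the ranges overlapped. The means were 9864 ± 2397 (SD, n = 10) and 13545 ± 4388 (SD, n = 10). The log2 fold change was −0.42 (SE 0.19, 95% interval −0.81 to −0.02), with an unadjusted p of 0.0415 and an adjusted p of 0.541 by limma. A two-sided permutation test gave p = 0.0581 on the log scale and p = 0.0335 on the means of the normalized counts. The difference was thus at the edge of the spread between libraries and did not pass over all genes. In 36 alternative fits the log2 fold change ran from −0.59 to −0.17, with adjusted p from 0.185 to 0.876. When 1 library was left out, the unadjusted p by limma was 0.05 or more in 12 of 20 fits. It ran from 0.00382 without wild-type library 20 to 0.0855 without knockout replicate 10. With all libraries it was 0.0243 by edgeR, 0.0159 by DESeq2 and 0.306 by limma with the beta cell marker mean as a covariate.

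G6pc2 (ENSMUSG00000005232, chromosome 2), the phosphatase gene, had a lowest, median and highest normalized read count of 20989, 55826 and 77027 in knockout and of 31800, 53309 and 153449 in wild-type libraries. Knockout replicate 10 was the lowest of all 20 libraries, and wild-type libraries 20 and 19 were the highest, the latter at 110116. The other libraries overlapped, from 42952 to 77027 in knockout and from 31800 to 65082 in wild-type. The means were 54309 ± 15390 (SD, n = 10) and 65916 ± 37496 (SD, n = 10). The log2 fold change was −0.19 (SE 0.25, 95% interval −0.72 to 0.34, adjusted p = 0.854 by limma), while the knockout median was the higher. It was −0.033 without wild-type library 20, −0.043 without knockout replicate 10 and −0.087 without wild-type library 19. With each library left out in turn it stayed negative, from −0.29 to −0.033. It lay between 0.083 and 0.27 in 3 sets of libraries left out together, which were chosen after seeing the data. Each set held knockout replicate 10 and wild-type library 19, so the change of sign follows in part from that choice. The plot of normalized counts by library shows how far knockout replicate 10 and wild-type libraries 19 and 20 stood from the rest.

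Slc30a8 (ENSMUSG00000022315, chromosome 15), the zinc transporter gene, had a lowest, median and highest normalized read count of 4871, 9076 and 12691 in knockout and of 7526, 10322 and 12595 in wild-type libraries. Knockout replicate 10 was again the lowest and knockout replicate 5 the highest. The other knockout libraries lay between 8259 and 11106, inside the wider wild-type range. The means were 9276 ± 2056 (SD, n = 10) and 10081 ± 1834 (SD, n = 10), and the log2 fold change was −0.14 (SE 0.14, 95% interval −0.43 to 0.15, adjusted p = 0.806 by limma). It was −0.037 without knockout replicate 10.

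**Figure D1:**
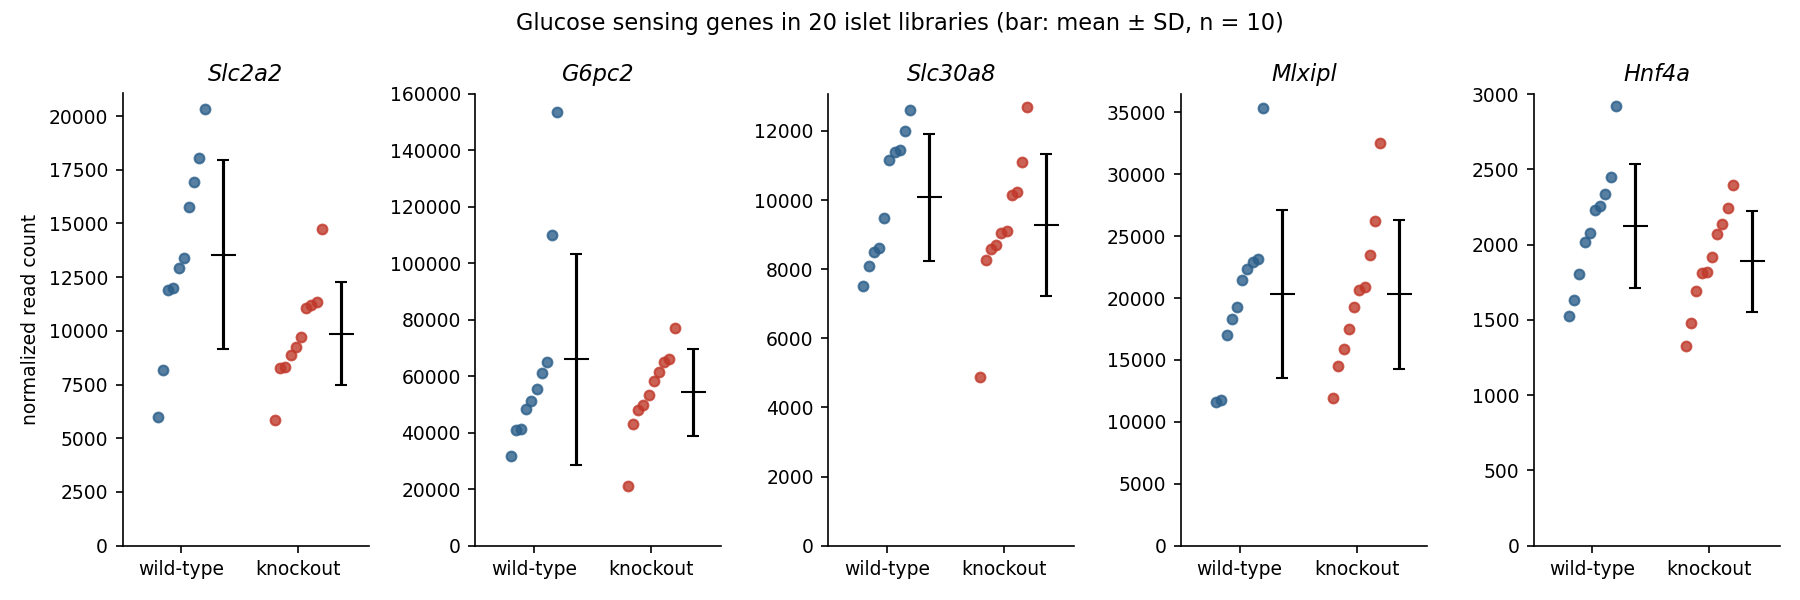
Normalized read count (linear axis from 0) of Slc2a2, G6pc2, Slc30a8, Mlxipl and Hnf4a in 10 wild-type (blue) and 10 knockout (red) islet libraries, 1 point per library in order of value, with the mean and SD beside them. The groups overlap in each panel, and for G6pc2 a pair of wild-type points at 110116 and 153449 stands above the rest.

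Mlxipl (ENSMUSG00000005373, chromosome 5), the ChREBP gene, had a lowest, median and highest normalized read count of 11929, 19927 and 32544 in knockout and of 11576, 20327 and 35329 in wild-type libraries. Knockout replicate 5 and wild-type library 19 were high, and the groups covered the same range. The means were 20285 ± 6032 (SD, n = 10) and 20315 ± 6754 (SD, n = 10). The log2 fold change was 0.01 (SE 0.19, 95% interval −0.38 to 0.41, adjusted p = 0.993 by limma), whose sign changed with the library left out.

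Hnf4a (ENSMUSG00000017950, chromosome 2), the nuclear receptor gene, had a lowest, median and highest normalized read count of 1328, 1871 and 2396 in knockout and of 1529, 2153 and 2924 in wild-type libraries. Knockout replicate 1 and wild-type library 19 were the lowest of their groups, and 8 of 10 knockout libraries lay below the wild-type median with overlapping ranges. The means were 1890 ± 336 (SD, n = 10) and 2126 ± 412 (SD, n = 10), and the log2 fold change was −0.17 (SE 0.12, 95% interval −0.42 to 0.09, adjusted p = 0.710 by limma). In 36 alternative fits it stayed between −0.34 and −0.11, with adjusted p from 0.334 to 0.851.

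Two-sided permutation tests of the log2 difference gave p = 0.514 for G6pc2, 0.381 for Slc30a8, 0.951 for Mlxipl and 0.189 for Hnf4a. The intervals set what these data could miss. A knockout level of G6pc2 from 0.609 to 1.27 times wild-type, of Mlxipl from 0.766 to 1.33 times, of Slc30a8 from 0.744 to 1.11 times and of Hnf4a from 0.747 to 1.06 times lay within the 95% limits. For Slc2a2 the limits were 0.569 and 0.988 times.

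**Figure D2:**
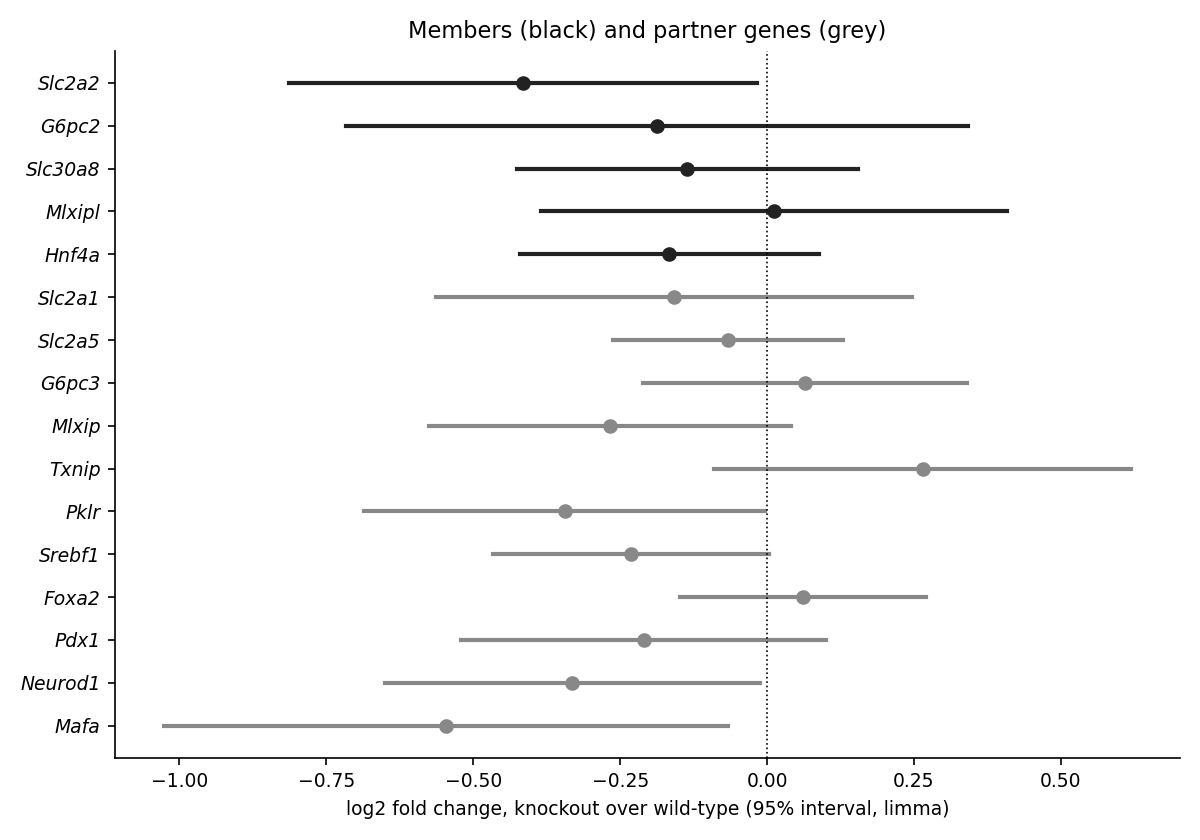
Log2 fold change of knockout over wild-type (x axis, with 95% interval, limma, 10 against 10 libraries) for the 5 genes (black) and 11 partner genes (grey), with a dotted line at no difference. The interval of Slc2a2 ends at −0.02, and those of G6pc2, Slc30a8, Mlxipl and Hnf4a span 0.

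Levels were compared between genes as normalized read count per kilobase of merged exon. Exon lengths were those of GENCODE M21, while the annotation used for counting is not known, so the levels can depend on the annotation. G6pc2 was the highest at 30452 per kilobase over all 20 libraries, followed by Slc30a8 at 4911, Mlxipl at 3666, Slc2a2 at 2034 and Hnf4a at 416. G6pc2 was above Slc30a8, and Slc2a2 above Hnf4a, in 20 of 20 libraries. Slc30a8 was above Mlxipl in 16 and Mlxipl above Slc2a2 in 18 of 20, so the middle of the order was not the same in each library.

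Within the glucose transporter family, Slc2a2 was a median of 26.5 times as high per kilobase as Slc2a1, the gene of the widely expressed GLUT1, and 92.4 times as high as Slc2a3, the gene of GLUT3. The fructose transporter gene Slc2a5 had a level like that of Slc2a2, which was the higher one in 10 of 20 libraries. G6pc, the gene of the liver glucose-6-phosphatase, had a highest normalized read count of 7.48 in knockout and 1.57 in wild-type libraries and fell under the filter on low values. Mlxipl was 14.2 times as high per kilobase as its paralogue Mlxip, and Slc30a8 was 12.7 times as high as the zinc transporter gene Slc30a5, each as the median of 20 libraries.

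Ratios within a library do not depend on its size factor, and 5 were compared between the genotypes by two-sided permutation tests adjusted over the 5, of which 3 are reported. The log2 ratio of Slc2a2 to Slc2a1 differed by −0.26 (SE 0.34), that of Slc30a8 to Ins2 by −0.29 (SE 0.26) and that of Txnip, a ChREBP target gene, to Mlxipl by 0.25 (SE 0.28), all with an adjusted p of 0.570. None of the 3 differed beyond the spread between libraries. Single libraries moved each of them by over 1.5 times. The Slc2a2 to Slc2a1 difference was −0.079 without knockout replicate 10, −0.11 without wild-type library 11 and −0.42 without wild-type library 20. That of Slc30a8 to Ins2 was −0.16 without knockout replicate 10, and that of Txnip to Mlxipl ran from 0.16 without knockout replicate 6 to 0.40 without wild-type library 20.

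Slc2a2 and Slc30a8 were higher in libraries with a higher mean log2 value of beta cell markers. The mean log2 value of 15 beta cell markers, none of them among the 5 genes, was correlated with Slc2a2 over 20 libraries with Pearson's r = 0.72 (permutation p = 0.00029, adjusted over 10 relations 0.00145) and Spearman's rho = 0.72 (permutation p = 0.00048, adjusted 0.00227). Within the genotypes r was 0.52 in knockout and 0.73 in wild-type, and it was 0.72 without the 2 libraries farthest from the median marker level, wild-type libraries 16 and 19. For Slc30a8 r was 0.74 (permutation p = 0.00016, adjusted 0.00145) and rho was 0.79 (permutation p = 7e-05, adjusted 7e-04), with r of 0.69 in knockout, 0.87 in wild-type and 0.72 without the same libraries. G6pc2 (r = 0.18, rho = 0.01, adjusted permutation p 0.645 and 0.978), Mlxipl (r = 0.11, rho = 0.09, adjusted 0.699 and 0.769) and Hnf4a (r = −0.09, rho = −0.12, adjusted 0.699 and 0.769) showed no relation that passed. The relation to Ins2 alone, the most abundant marker, was not tested. Ins2 was lowest in wild-type library 11, at 13377100, where Slc2a2 was 18026 against a wild-type median of 13146. Among wild-type libraries Ins2 was highest in library 16, at 34956200, where Slc2a2 was also above that median, at 16932. In knockout replicate 10, the lowest library for Slc2a2 and Slc30a8, Ins2 was 31994500 against a knockout median of 26833700.

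The marker mean itself was 13.9 in knockout and 14.1 in wild-type libraries, a difference of −0.20 (two-sided permutation test, p = 0.0899). The fold change was negative for 11 of the 15 markers, the median over them was −0.21, and none passed by limma, with 4 at an unadjusted p under 0.05. The 4 markers above 0 were Ins1 (log2 0.10), Ins2 (0.16), Iapp (0.19), which encodes the amyloid peptide secreted with insulin, and Ucn3 (0.0047). Ins2, Ins1 and Iapp were the most abundant markers, so the summed marker level and the mean log2 value of the list differ in direction. With the marker mean as a covariate, the log2 fold change of Slc2a2 was −0.17 (SE 0.16, adjusted p = 0.876 by limma), less than the −0.42 without it. That of Slc30a8 was 0.053. The summed level of the markers had a median of 28657700 in knockout (15489100 to 38240300) and of 23335200 in wild-type libraries (14878900 to 37090000). The marker mean includes the beta cell transcription factor genes Mafa, Pdx1 and Nkx6-1, so the fit with it does not measure beta cell content alone. Nkx6-1 was also among the genes most like Slc2a2 (r = 0.88). The part of beta cell content in the Slc2a2 difference was not tested.

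Acinar RNA moved with Slc30a8 as well, and with Hnf4a by Pearson's r but not by rho. Its share of reads was correlated with Slc30a8 at r = −0.67 (permutation p = 0.00062, adjusted 0.00207) and rho = −0.72 (permutation p = 0.00068, adjusted 0.00227), with r of −0.64 in knockout, −0.74 in wild-type and −0.61 without the 2 libraries farthest from the median share, knockout replicate 5 and wild-type library 12. Hnf4a went the other way, at r = 0.52 (permutation p = 0.0192, adjusted 0.0479). Its rho of 0.51 did not pass (permutation p = 0.0225, adjusted 0.0563). For Hnf4a r was 0.71 in knockout, 0.45 in wild-type and 0.53 without the same libraries. G6pc2 had r = −0.46 (adjusted permutation p = 0.0783) and rho = −0.41 (adjusted 0.141), Mlxipl r = −0.20 and rho = −0.13 (adjusted 0.645 and 0.769) and Slc2a2 r = −0.15 and rho = −0.18 (adjusted 0.666 and 0.756), none of which passed. The share had a mean of 23.6% in knockout and 21.96% in wild-type libraries (two-sided permutation test, p = 0.696). With it as a covariate the log2 fold change of Slc2a2 was −0.41 and that of Hnf4a −0.19.

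**Figure D3:**
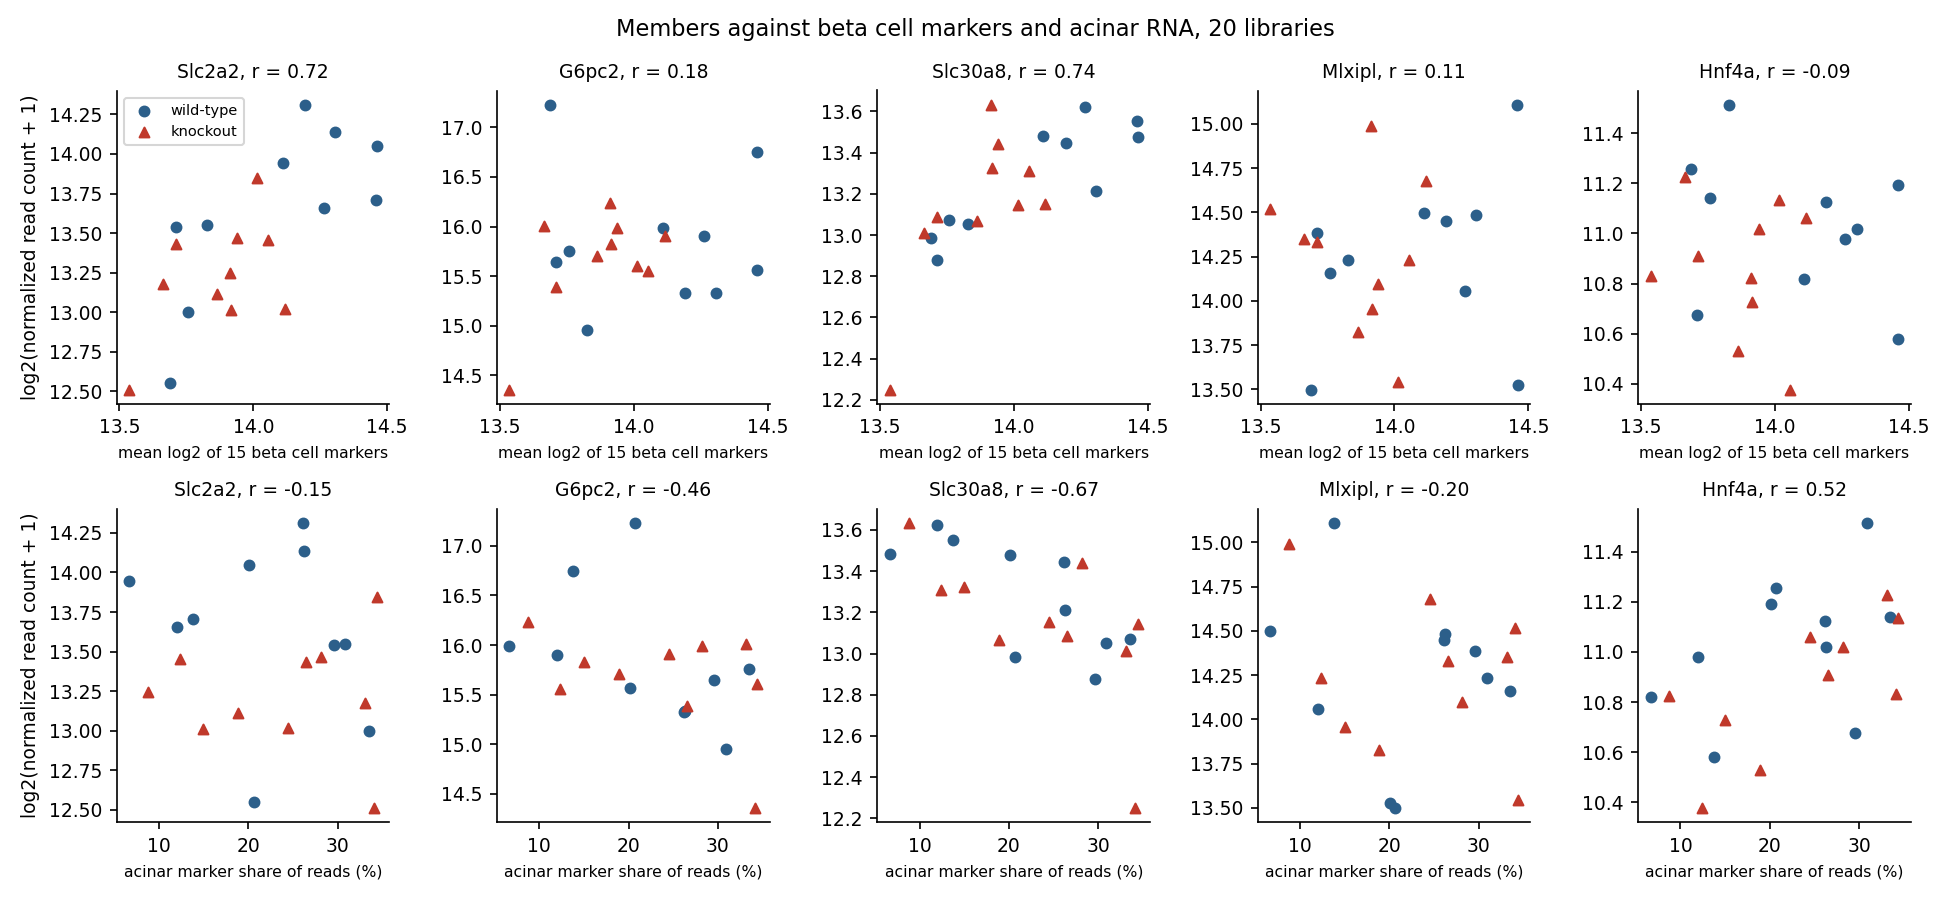
Log2 of normalized read count plus 1 of each of the 5 genes (y axes) against the mean log2 value of 15 beta cell markers (top) and the acinar marker share of reads in percent (bottom), 1 point per library, wild-type in blue circles and knockout in red triangles. Slc2a2 and Slc30a8 rise with the mean of the beta cell markers (r = 0.72 and 0.74). Slc30a8 is lower and Hnf4a higher in libraries with more acinar RNA (r = −0.67 and 0.52). For Hnf4a the rank correlation did not pass (adjusted permutation p = 0.0563).

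The 5 genes did not vary as 1 block. As a description over libraries that share a size factor for each pair, Slc2a2 and Slc30a8 had r = 0.61 in knockout and 0.59 in wild-type (n = 10 each). G6pc2 and Slc30a8 had r = 0.89 in knockout and 0.05 in wild-type, and Slc2a2 and G6pc2 had 0.48 and −0.60. In the knockout group, replicate 10 was the lowest library for all 3 of these genes. In the wild-type group, library 20 had the highest G6pc2 and the lowest Slc2a2, and its G6pc2 count was 25.5 times its Slc2a2 count, against a wild-type median of 4.22 times and a knockout range of 3.38 to 7.92 times. The difference between the genotypes in these correlations was not tested.

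**Figure D4:**
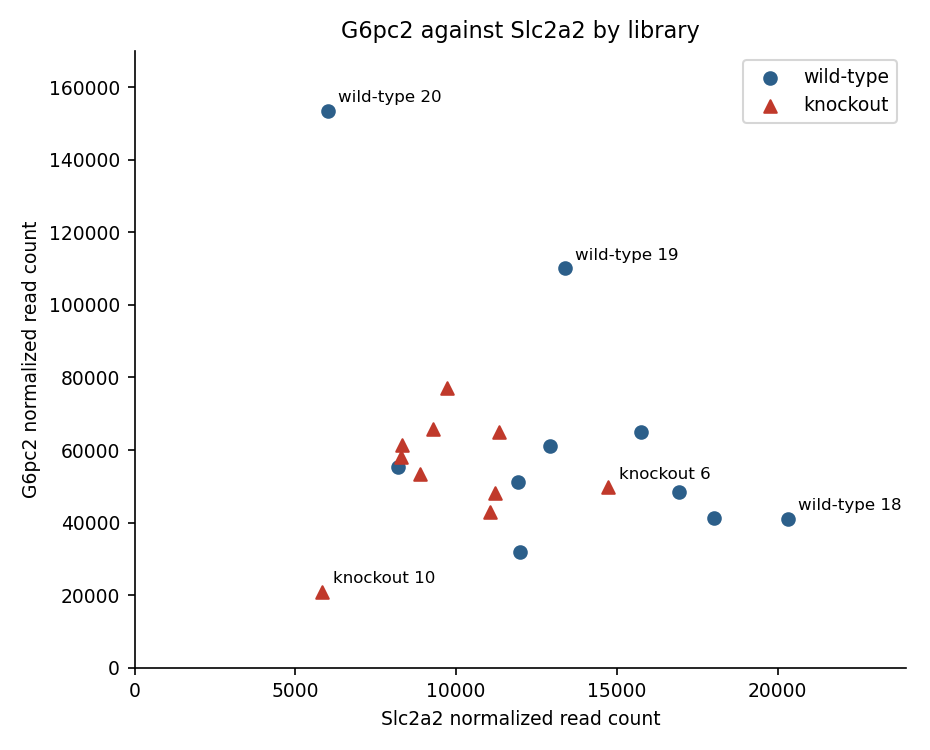
Normalized read count of G6pc2 (y axis) against that of Slc2a2 (x axis) in 10 wild-type (circles) and 10 knockout (triangles) libraries, both axes linear from 0. Wild-type library 20 combines the highest G6pc2 value, 153449, with a Slc2a2 value of 6008, and knockout replicate 10 is lowest for both.

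For each gene, the genes of the most similar profile were taken by Pearson's r over the 20 libraries after the genotype means were removed. The search covered the 12362 genes whose mean was 100 or more. These are descriptions of libraries that share size factors and cell make-up. For Slc2a2 they were Itpkb (r = 0.89), which encodes an inositol trisphosphate kinase, Stat5b (0.88), a transcription factor of cytokine and prolactin signalling, and Nkx6-1 (0.88), a beta cell transcription factor. For Slc30a8 they were Twsg1 (0.94), a modulator of BMP signalling, the kinesin gene Kif5c (0.92) and the receptor gene Gpr158 (0.91). Mlxipl was most like Akap8l (0.90), Pan2 (0.89), a subunit of a poly(A) nuclease, and Snrnp70 (0.89), a component of the U1 splicing particle. Hnf4a had the weakest likenesses, with Usp43 (0.82), the FGF21 co-receptor gene Klb (0.80) and Wwc1 (0.76).

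G6pc2 was most like Spc25 (r = 0.95), the amino acid transporter gene Slc38a4 (0.94) and the chaperone gene Dnaja1 (0.89). The last of these was 0.64 without knockout replicate 10 and wild-type libraries 19 and 20, whereas Spc25 stayed at 0.91. Spc25, a kinetochore subunit, is the next tested gene to G6pc2 on chromosome 2, with 0 tested genes between them. Its mean was 17402 ± 9749 (SD, n = 10) in wild-type against 16466 ± 5642 (SD, n = 10) in knockout libraries, which was 18.3% to 35.9% of the G6pc2 count of the same library. The other subunits of the same kinetochore complex, chosen after their values were seen, were far lower, with a median normalized read count of 65.4 for Spc24, 28.2 for Nuf2 and 10.99 for Ndc80. Whether reads of G6pc2 transcripts were counted for Spc25 was not tested, and the kit does not mark strand.

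Antisense genes overlap a pair of the 5, and their reads cannot be told apart without strand. 1700112D23Rik, antisense to Slc2a2, was at 0.792% of the Slc2a2 count, and Hnf4aos, antisense to Hnf4a, at 0.959% of the Hnf4a count. Slc2a2 lies on the same chromosome as the targeted gene, as number 54 of 833 tested genes of chromosome 3, where P2ry14 is number 174. Of the 119 tested genes between them 0 passed by limma, beside 0.28% of all genes. On the whole chromosome 10 genes passed, or 1.20%, all at number 328 or later. Of the 10 tested genes nearest to Slc2a2, 5 on each side, 7 had a negative fold change, from −0.69 to 0.62 with a median of −0.097, and 0 passed.

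The lists of related genes held no gene that passed by limma, edgeR or DESeq2, in either direction, against 0.28% of all genes by limma and a median log2 fold change of −0.002 over all genes. In the list of glucose entry and phosphorylation, 15 of 17 genes were tested, 9 had a negative fold change, the median was −0.15 and 0 had an unadjusted p under 0.05. The median ran from −0.32 to −0.027 in 36 alternative fits, and was −0.050 without knockout replicate 3. The smallest p-values of the list were those of the genes of the bifunctional fructose-2,6-bisphosphate enzymes, Pfkfb2 (log2 −0.31) and Pfkfb1 (−0.88), and of the hexokinase gene Hk1 (−0.23). Pfkfb1 was low, with 39.3 ± 28.6 (SD, n = 10) in wild-type against 32.3 ± 31.4 (SD, n = 10) in knockout libraries. Its log2 fold change had an SE of 0.79, and it was at 0 in knockout replicates 5 and 10.

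In the list of ChREBP partners and targets, 24 genes were tested, 12 had a negative fold change, the median was −0.02 and 1 had an unadjusted p under 0.05. The median ran from −0.18 to 0.037 in the alternative fits. The gene below 0.05 was Pklr, the gene of liver-type pyruvate kinase and a classical ChREBP target, with 818 ± 200 (SD, n = 10) in wild-type against 641 ± 168 (SD, n = 10) in knockout libraries (log2 −0.34, adjusted p = 0.558 by limma). Txnip, the thioredoxin-interacting protein gene, lay in the other direction, with 14233 ± 4391 (SD, n = 10) in wild-type against 16985 ± 4870 (SD, n = 10) in knockout libraries (log2 0.26, adjusted p = 0.674 by limma). The other named genes of the list were the lipogenic regulator gene Srebf1 (log2 −0.23), Thrsp (0.65) and Mlxip (−0.27).

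In the list of the HNF and FOXA network, which surrounds Hnf4a, 24 of 25 genes were tested, 15 had a negative fold change, the median was −0.08, from −0.23 to −0.019 in the alternative fits, and 3 had an unadjusted p under 0.05. Among these were the beta cell transcription factor genes Mafa (log2 −0.55, adjusted p = 0.497) and Neurod1 (log2 −0.33, adjusted p = 0.544).

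In the list of zinc transport and storage, 24 of 27 genes were tested, 16 had a negative fold change, the median was −0.04, from −0.21 to −0.022 in the alternative fits, and 0 had an unadjusted p under 0.05. The smallest p-values belonged to zinc importer genes, Slc39a11 (log2 −0.28), Slc39a9 (−0.17) and Slc39a10 (−0.35). The metallothionein gene Mt1, which is induced by free zinc, varied 9.49-fold between libraries, with a log2 fold change of 0.00051.

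**Figure D5:**
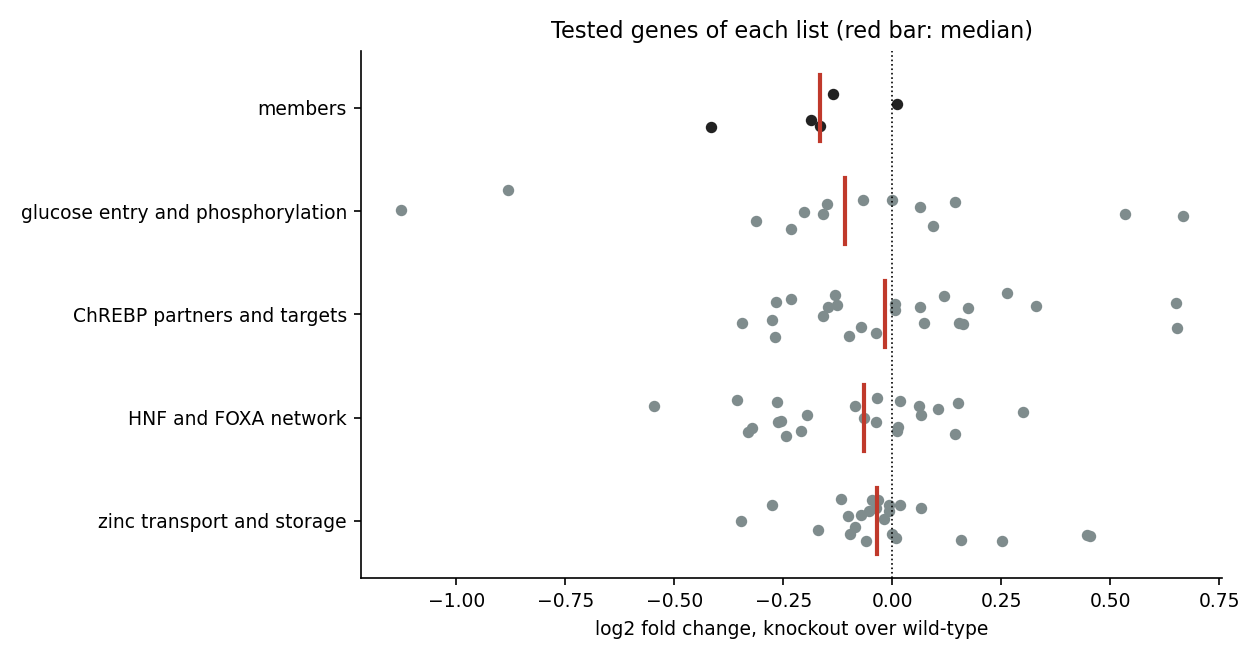
Log2 fold change of knockout over wild-type (x axis) for the 5 glucose sensing genes (black) and tested genes of the 4 lists of related genes (grey). Genes not reported here are left out. A red bar marks the median of the points shown, which can differ from the list median in the text. The medians run from −0.17 for the 5 genes to −0.02 for ChREBP partners and targets, and no gene shown passed the test over all genes.

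Markers of other cells give the setting of these values. Of 24 acinar markers 20 had a positive fold change (median 0.13), of 9 alpha cell markers tested 6 had a negative one (median −0.56) and of 8 delta and PP cell markers 7 had a negative one (median −0.53). All 8 duct markers (median 0.16), 8 of 10 macrophage markers (median 0.49) and 6 of 8 mesenchymal and stellate markers (median 0.11) had positive fold changes, and 5 of 8 endothelial markers (median −0.02) negative ones. Of these, 1 delta and PP cell marker passed by limma. An unadjusted p under 0.05 was found for 5 alpha, 4 delta and PP and 3 macrophage markers and for 0 acinar, duct, endothelial or mesenchymal and stellate markers, beside 8.94% of all genes. The glucagon gene Gcg (log2 −0.57, unadjusted p = 0.0249 by limma) and the somatostatin gene Sst (−0.54, unadjusted p = 0.0122) were among them. The summed acinar level ran from 4654400 to 53095700 in knockout and from 3736680 to 39946200 in wild-type libraries, and no acinar, beta, delta and PP or endothelial marker was at 0 in any library. The alpha markers Pou3f4 and Loxl4 were at 0 in 4 and 6 of the 20 libraries, and Fap, Cftr, Aif1, Pdgfra and Itgam in 1 or 2. Beyond the acinar share and the beta cell marker mean, the part of cell make-up in G6pc2, Mlxipl and Hnf4a values was not tested.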

How the data were processed

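Gene values of 20 islet libraries, 10 knockout and 10 wild-type, came from 1 table. The deposited values are a signal unit, read counts per gene divided by a DESeq size factor, and the build is mm9 per the submitters' processing notes. These notes also list DESeq 1.16.0, Cufflinks 1.3.0, Bowtie 0.9.9, TopHat 1.3.3 and FastQC, without roles. The counter, its strand setting and the annotation release were not found in the sources used. Libraries were made with TruSeq RNA v2, per the labels' protocols, a kit that does not mark strand. Whole reads were recovered for 100% of non-zero values within 0.05 reads, giving 34520628 to 199847246 reads over genes. Names, gene order and merged exon lengths were taken from GENCODE M21, which is on GRCm38, for 23950 of 26211 identifiers, so no gene coordinates are printed. Knockout columns carry the replicate numbers of the labels, and wild-type columns carry the numbers 11 to 20.

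Genotypes were compared by limma 3.58.1 (R 4.3.3; lmFit and trended eBayes) on log2(value + 1), genotype being the single term. It covered 17482 genes whose mean was 10 or more, with Benjamini-Hochberg adjustment over all of them and a threshold of 0.05. Each log2 fold change is thus a difference between group means of the log2 values. For low genes it can lie farther from 0 or nearer to it than the log2 ratio of the mean counts. As a fold it was 0.256 for P2ry14 and 0.543 for Pfkfb1, where the ratios of the means were 0.340 and 0.823. For Thrsp the fold was 1.57 and the ratio of the means 1.70. Permutation tests were two-sided with 100000 resamples (scipy 1.17.1, numpy 2.4.6, pandas 2.3.3). Simulated data held 17220 genes in 10 against 10 libraries. In them the limma step recovered 12 of 42 genes changed 1.5-fold (28.6%) and 44 of 62 changed 2-fold (71%). It recovered 37 of 44 genes changed 3-fold (84.1%) and 35 of 42 changed 4-fold (83.3%), with 10 false calls of 138. Genes were drawn independently in 1 run, so shifts that many genes share through cell make-up were left out.

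The alternatives were pseudocounts of 0.5 and 10, no filter or a mean of at least 100, TMM, quantile normalization, library totals without acinar markers, DESeq2 1.42.0 and edgeR 4.0.16 on whole reads, robust eBayes, library weights, covariates for acinar share and the beta cell marker mean, and each library left out in turn. Sets of libraries left out together were added after seeing the data. The 5 genes and the gene lists were chosen with earlier results of these data known. The genes named are the 5, P2ry14, Slc2a1, Txnip, Pklr, Mlxip and Ins2, the 3 of each related list with the smallest p, any list gene past the threshold, and the 3 of the most similar profile to each of the 5. Some genes that this rule takes are not reported here. Other genes were added after their values were seen: Spc24, Ndc80, Nuf2, G6pc, Slc2a3, Slc2a5, Slc30a5, Mt1, the antisense genes, Gcg, Sst, Iapp, Ucn3 and some other markers.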

Additional observations from a re-analysis of the deposited data

Results flagged for a closer look

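In 28 groups of 10 libraries, the gap of the highest or lowest library to the next was compared with the range of its group, and 2 groups exceeded Dixon's 95% critical value. Chance gives about 1 in 20. Mlxipl was at 35329 in wild-type library 19, against 23150.5 in the next highest wild-type library. The log2 ratio of Slc2a2 to Slc2a1 was 3.57 in knockout replicate 10, and the next lowest knockout library had 4.80.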

How the results depend on the processing

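No gene of the 5, and no gene of the 4 related lists, passed in any of 36 alternatives, and Slc2a2 and Hnf4a kept a negative sign in all of them. The 3 sets of libraries left out together were chosen after seeing the data, with values of the 5 genes in view: knockout replicate 10 with wild-type libraries 19 and 20, picked by eye, the 3 libraries least correlated with the others (knockout replicates 6 and 10, wild-type library 19), and the 2 least correlated of each genotype. These gave G6pc2 fold changes of 0.24, 0.083 and 0.27 in place of −0.19 on the log2 scale, which follows in part from leaving out its lowest and highest libraries. Slc30a8 was 0.0057 in the second set and 0.053 with the beta cell marker mean as a covariate. Mlxipl was −0.16 with library totals without acinar markers, −0.0047 with edgeR, −0.0020 with DESeq2, −0.044 with library weights and −0.0016 in the first set, and ran from −0.070 to 0.11 when 1 library was left out. The scaling without acinar markers moved the median of all genes to −0.17, so Mlxipl and the medians of ChREBP partners and targets (−0.18) and zinc genes (−0.21) lay near it. With it 9 genes were called higher and 27 lower, against 28 and 21 in the main comparison. The count of 49 genes was 29 with a mean of at least 100, 43 with edgeR, 137 with DESeq2, 163 with library weights, 21 with the beta cell covariate, 76 and 80 in the second and the third set, and 27 to 74 with 1 library left out. The cause of these shifts was not tested. No paired analysis was possible because the wild-type columns do not carry the replicate numbers of the labels. The labels number each genotype separately, and nothing found in them states that equal numbers mark pairs. Matching the numbers would therefore not by itself make the design a paired one.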
